A study of Mus musculus with 12 samples.

Results

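The 8 subunits of the cytosolic chaperonin CCT, also called TRiC, were followed in 12 RNA-seq libraries of neutrophils sorted from mouse (Mus musculus) hearts. The subunits are Cct4, Cct5, Cct2, Tcp1, Cct7, Cct8, Cct6a and Cct3, and they make up 8 of the 11911 genes listed in the deposited table. The family was selected on measured values: it was chosen by the high level of Cct4 in the LOY libraries in an earlier fit of the same table, so the level and the fold of Cct4 are given as a description with no test. All 8 subunits passed the filter on low values, a minimum of 10 normalised reads in 6 or more libraries, as did 6951 genes in all. Normalised reads are the reads of a gene after division by a scaling factor of its library. The filter is set over both groups together, so a subunit could pass on 1 group alone.

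The genotype label reads LOY in 6 libraries (numbered 3, 4, 5, 10, 14 and 15) and control in the other 6 (2, 6, 7, 8, 11 and 12). In the series title LOY stands for a haematopoietic loss of the Y chromosome. Titles of both groups name a control bone marrow transplant and the treatment label is control throughout. The groups are therefore set apart only by the genotype label and by a code in the title. That code ends in C for control libraries and in KO for LOY libraries. Each library was made from 800 left ventricular cells, gated as Ly6G+ and CD64- within cells carrying CD45.2 and a red fluorescent protein. The strain, age and sex of the mice and the way the Y chromosome was lost are not stated in the material used here. Nothing in the labels says that every library is from another animal, and p-values therefore measure only the spread among these 12 samples, which may be technical.

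Ddx3y, a Y-linked RNA helicase, served as the check of the genotype labels. It averaged 8.77 ± 21.0 normalised reads in LOY libraries and 857 ± 422 in control libraries (SD, n = 6 each), with a log2 fold change of -8.46 (SE 1.22) and an adjusted p of 0.0197 in limma. The LOY value came almost wholly from LOY 10, at 51.6 normalised reads. The reads of all listed genes ran from 6767108 to 10203723 per LOY library and from 7176250 to 12561174 per control library. The 10 neutrophil markers summed to 307994 to 685838 normalised reads in LOY libraries and to 308618 to 912570 in control libraries.

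CCT is a barrel of a pair of stacked rings, each built from all 8 subunits in a fixed order, and it closes over an unfolded protein in a cycle driven by ATP. Actin and tubulin are its best known clients, together with many proteins built from WD40 repeats. Prefoldin hands clients over to it, and phosducin-like proteins work with it on certain clients. Work on the yeast and bovine complexes placed Cct4, Cct5, Cct2 and Tcp1 on the side of the ring that binds ATP strongly and Cct7, Cct8, Cct6a and Cct3 on the side that binds it weakly. Because a ring holds every subunit, no subunit is thought to replace another.

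The subunit genes lie on 8 different chromosomes in GENCODE M21, on the GRCm38 build. Cct4 (ENSMUSG00000007739) is at chr11:22990519-23003780 on the plus strand. Cct5 (ENSMUSG00000022234) is at chr15:31590800-31601804 on the minus strand, and Cct2 (ENSMUSG00000034024) at chr10:117051001-117063814 on the minus strand. Tcp1 (ENSMUSG00000068039), named for the mouse t-complex, is at chr17:12915701-12925067 on the plus strand. Cct7 (ENSMUSG00000030007) is at chr6:85451514-85468475 on the plus strand, and Cct8 (ENSMUSG00000025613) at chr16:87483326-87495873 on the minus strand. Cct6a (ENSMUSG00000029447) is at chr5:129786998-129846371 and Cct3 (ENSMUSG00000001416) at chr3:88297116-88321767, both on the plus strand.

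Several of these genes have close copies elsewhere in the genome, and reads that match both could be placed on either or dropped. Cct4 has the processed pseudogene Gm15495, with 89.6% identical bases over 1087 aligned bases. Other copies with long or close matches included Cct3-ps1 of Cct3 (91.4% over 1650 bases), Gm11516 of Cct3 (89.9% over 1594 bases), Tcp1-ps1 of Tcp1 (87.2% over 1492 bases) and, over a shorter stretch, Gm5380 of Cct7 (93.5% over 569 bases). None of these pseudogenes is listed in the table. The BLAST search, which covered annotated pseudogenes and named relatives only, gave no copy of Cct5 or Cct8. Cct6a has a protein-coding relative, Cct6b, which is known from testis and aligned at 77.1% over 1184 bases. The stretches below show how far a read of 90 bases could tell Cct4 from its pseudogene, and Cct6a from Cct6b. They were taken from GENCODE M21 transcripts (bases 485 to 574 of Cct4 and 472 to 561 of Cct6a), the first inside the coding sequence of Cct4 and the second aligned to coding sequence of Cct6b. The Cct6a transcript has no coding part annotated there. Capitals mark the bases that differ within a pair.
Cct4: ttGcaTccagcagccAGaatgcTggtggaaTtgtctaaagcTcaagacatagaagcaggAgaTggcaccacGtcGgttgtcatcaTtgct
Gm15495 (chr7:25442152-25443463): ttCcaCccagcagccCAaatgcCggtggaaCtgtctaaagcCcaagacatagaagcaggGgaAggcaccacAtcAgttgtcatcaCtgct
Cct6a: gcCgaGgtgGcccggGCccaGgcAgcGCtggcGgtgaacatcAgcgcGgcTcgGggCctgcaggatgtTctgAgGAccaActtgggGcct
Cct6b (chr11:82719250-82764321): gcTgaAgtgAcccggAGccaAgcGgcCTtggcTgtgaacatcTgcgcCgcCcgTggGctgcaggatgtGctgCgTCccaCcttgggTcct
The Cct4 pair differs at 12 of the 90 bases and the Cct6 pair at 21. Cct6b itself was read in LOY 10 at 213 normalised reads and had 0 reads in the other 11 libraries.

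Cct4, the delta subunit, in which a mutation causes a sensory neuropathy in rats, was abundant in every LOY library and scarce in all but 1 control library. It had 324, 888, 506, 446, 1260.2 and 375 normalised reads in LOY 3, 4, 5, 10, 14 and 15. In control 2, 6, 7, 8, 11 and 12 it had 1.45, 8.23, 0, 13.9, 484 and 2.78 normalised reads. The groups overlapped only through control 11, which exceeded 3 of the 6 LOY libraries, while the other 5 control libraries were below every LOY library. The group means were 633 ± 366 in LOY and 85.1 ± 196 in control (SD, n = 6 each), a ratio of 7.44. Without control 11 the control mean was 5.28 ± 5.75 (SD, n = 5) and the ratio 120. The log2 fold change was 5.92 (SE 1.37), on the log2(normalised reads + 1) scale used for every fold change of limma here. In reads as sequenced, the LOY libraries held 3931 of Cct4 and the control libraries 879, of which 852 were in control 11. These are the values that chose the family.

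Cct5, the epsilon subunit, in which mutations cause a sensory neuropathy in humans, was at 323 normalised reads or more in 11 of the 12 libraries. It had 352, 0, 365, 1099, 576 and 721 normalised reads in LOY 3, 4, 5, 10, 14 and 15. The values in control 2, 6, 7, 8, 11 and 12 were 542, 1007, 912, 954, 586 and 323. The groups overlapped, and LOY 4 was the lone library with no read of it. Its log2 fold change was -1.76 (SE 1.38, 95% interval -4.73 to 1.20), with an adjusted p of 0.997 in limma. Without LOY 4 it was -0.24.

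Cct2, the beta subunit, which has also been described in human cells as a receptor that brings protein aggregates to autophagy, varied widely in both groups. It had 0.703, 76.8, 151, 425, 84.1 and 0 normalised reads in LOY 3, 4, 5, 10, 14 and 15. In control 2, 6, 7, 8, 11 and 12 it had 2.90, 247, 519, 12.7, 210.3 and 39.8. Both groups ran from a few reads or none to over 400, and they overlapped fully. Its log2 fold change was -1.06 (SE 1.79, 95% interval -4.88 to 2.77; limma adjusted p = 0.999). With 1 library left out it ran from -1.86 without control 2 to -0.075 without LOY 15.

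Tcp1, the alpha subunit and the first of the family to be cloned, was absent or nearly so in 5 libraries. It had 1.41, 161, 66.3, 328, 451 and 3.09 normalised reads in LOY 3, 4, 5, 10, 14 and 15. The values in control 2, 6, 7, 8, 11 and 12 were 0, 167, 0, 13.9, 457 and 0. Control 11, the control library high in Cct4, was also the highest control library for Tcp1. Its log2 fold change was 2.29 (SE 1.99, 95% interval -1.96 to 6.55; limma adjusted p = 0.997), and 1.62 to 3.39 with 1 library left out.

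Cct7, the eta subunit on the side that binds ATP weakly, came next after Cct4 in its fold. It had 703, 107, 616, 219, 1217 and 203 normalised reads in LOY 3, 4, 5, 10, 14 and 15. In control 2, 6, 7, 8, 11 and 12 it had 32.6, 182, 2.49, 20.3, 269 and 251. Every LOY library was above 100 and 3 of the 6 control libraries were below 50, but the groups overlapped. The means were 511 ± 422 in LOY libraries and 126 ± 122 in control libraries (SD, n = 6 each), a ratio of 4.05. The log2 fold change was 2.72 (SE 1.19, 95% interval 0.18 to 5.26), and 1.92 to 3.18 with 1 library left out. Its unadjusted p of 0.0374 passed 0.05, and its adjusted p of 0.997 in limma did not; DESeq2 on the recovered reads gave 2.02 with an adjusted p of 0.357.

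Cct8, the theta subunit, was high in most libraries and nearly absent in 2 LOY libraries. It had 312, 889, 0.989, 942, 2.10 and 1066 normalised reads in LOY 3, 4, 5, 10, 14 and 15. The values in control 2, 6, 7, 8, 11 and 12 were 667, 1260.4, 922, 1366, 724 and 110.1. LOY 5 held 1 read and LOY 14 held 2, against 119 in the lowest control library. The log2 fold change was -2.60 (SE 1.62, 95% interval -6.07 to 0.87; limma adjusted p = 0.997). It was -1.44 without LOY 5 and -1.57 without LOY 14.

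Cct6a, the zeta subunit, had 460, 222, 1.98, 88.3, 210.2 and 264 normalised reads in LOY 3, 4, 5, 10, 14 and 15. In control 2, 6, 7, 8, 11 and 12 it had 0.725, 814, 133, 16.5, 0 and 324. The group means were 208 ± 157 in LOY and 215 ± 319 in control (SD, n = 6 each), although the log2 fold change was 1.75 (SE 1.85, 95% interval -2.22 to 5.72; limma adjusted p = 0.999). The sign depended on the test, since DESeq2 gave -0.047 on the recovered reads. With 1 library left out the limma value ran from 0.75 without control 11 to 2.78 without LOY 5.

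Cct3, the gamma subunit, was split within both groups. It had 258, 0, 0, 227, 435 and 407 normalised reads in LOY 3, 4, 5, 10, 14 and 15. The values in control 2, 6, 7, 8, 11 and 12 were 2.18, 609, 3.31, 22.8, 22.7 and 22.2. The highest single value was in control 6, while 4 LOY libraries were above the other 5 control libraries. The log2 fold change was 1.10 (SE 1.96, 95% interval -3.10 to 5.30; limma adjusted p = 0.999), and it turned to -2.53 with the cardiomyocyte marker mean as a covariate. It ran from 0.45 without LOY 14 to 2.21 without LOY 4 or LOY 5.

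**Figure D1:**
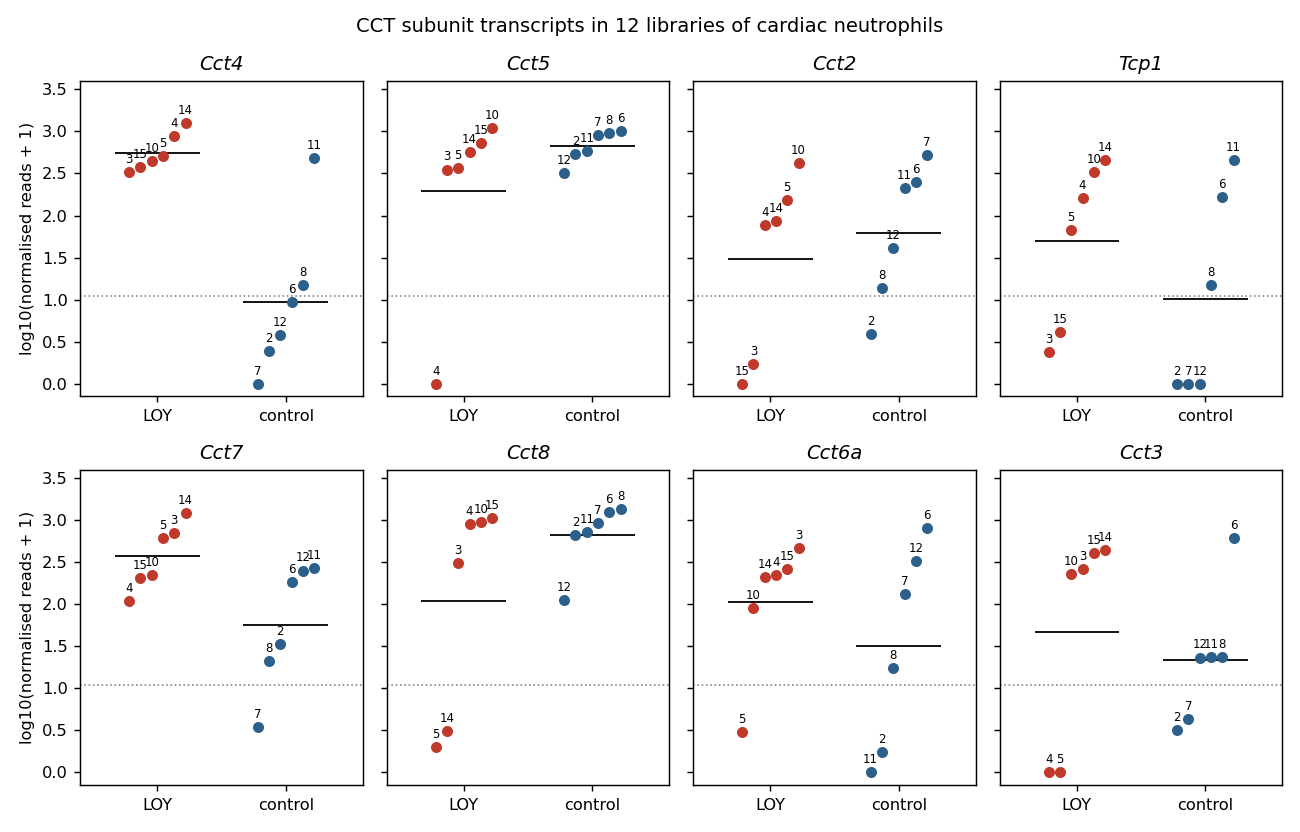
Normalised reads of the 8 subunits in each library as log10(normalised reads + 1) on the y axis, LOY libraries (red) left of control libraries (blue), each point marked with its library number. Bars are group means on that scale and the dotted line is 10 normalised reads; Cct4 is above 300 in every LOY library and below 15 in every control library but control 11.

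Cct4 was left out of the count of calls because its values chose the family, and no call is claimed for it. None of the 7 remaining subunits passed an adjusted p of 0.05. Over all genes, limma called 2 of 6951 (0.0288%), DESeq2 called 303 of 9723 (3.12%) and edgeR called 0 of 7054 (0%). At an unadjusted p under 0.05, limma and DESeq2 each passed 1 of the 7, Cct7, and edgeR passed 0. The shares of all genes at that level were 4.37% in limma, 10.1% in DESeq2 and 1.84% in edgeR, and 1 passing subunit of 7 is not read as a result about the family. Of all 8 subunits, 5 had a positive and 3 a negative log2 fold change, with a median of 1.42. Cct4 is among the 5 and was chosen for its high level in LOY. The middle value of the other 7 was 1.10, that of Cct3. Over the 6951 genes tested, 50.4% were positive and the median was 0.0081. The authors' deposited table gives log2 fold changes of 2.89 for Cct4, 2.02 for Cct7, 0.96 for Cct3 and 0.66 for Tcp1. For the remaining subunits the authors' deposited table gives -0.047 for Cct6a, -0.47 for Cct5, -0.48 for Cct2 and -0.65 for Cct8. DESeq2 on the recovered reads gave the same fold changes for all 8 subunits, so the deposited values are not a separate result.

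**Figure D2:**
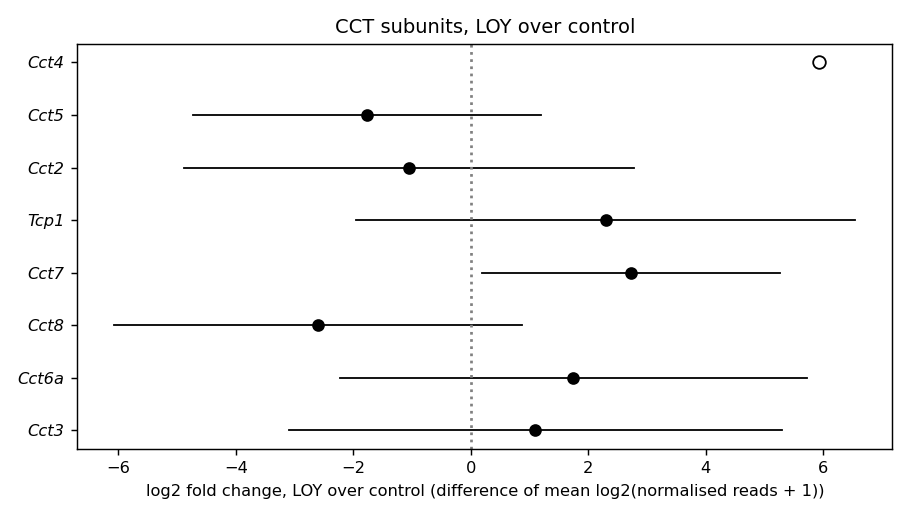
Log2 fold change of each subunit, LOY over control, as the difference of mean log2(normalised reads + 1) on the x axis, with 95% intervals from limma as lines. Cct4 is drawn hollow and without an interval because its value chose the family; the interval of Cct7 starts at 0.18 and those of the other 6 span 0.

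The subunits were often missing from single libraries although their mean levels were moderate. Of the 96 values of 8 subunits in 12 libraries, 23 were below 10 normalised reads, 10 of 48 in LOY and 13 of 48 in control, and 9 of these 23 were 0. Cct4, whose high level in LOY chose the family, is included and was below 10 in 4 libraries, all of them control. The counts of the groups are therefore not compared. Only 10 of the 96 values lay between 10 and 50, and the other 63 were at 50 or more. A count of 0 allows up to 3 reads, and this limit covers counting error only. The median subunit was below 10 in 3 libraries. For the 3664 other genes whose mean over the 12 libraries lay within the range of the subunits, 137 to 688 normalised reads, the median was 2 libraries (quartiles 1 and 4). A pattern of present or missing transcripts was therefore seen across genes of this level and not in the chaperonin alone.

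No library lacked the chaperonin as a whole. At least 10 normalised reads were found for 6, 6, 5, 8, 7 and 6 of the 8 subunits in LOY 3, 4, 5, 10, 14 and 15. In control 2, 6, 7, 8, 11 and 12 the number was 3, 7, 4, 8, 7 and 6. The means were 6.33 ± 1.03 in LOY and 5.83 ± 1.94 in control (SD, n = 6 each). Cct4, whose values chose the family, is counted here, at 10 or more in 6 LOY and 2 control libraries. The means are therefore not read as a difference between the groups. All 8 subunits reached 10 reads in 1 library of each group, LOY 10 and control 8. These counts depend on the cut. At 50 normalised reads the numbers were 6, 6, 5, 8, 7 and 6 in the LOY libraries in that order, and 2, 7, 4, 2, 6 and 4 in the control libraries, control 8 then holding 2 subunits.

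Across libraries, positive and negative relations between subunits were about equally frequent. After the group means were subtracted, Pearson's r of the log2 values over the 12 libraries was positive in 13 of 28 subunit pairs, with a median of -0.015 and a range from -0.46 to 0.76. Among pairs of the 3664 genes of like level, the median was 0.0046 with quartiles of -0.23 and 0.25. The highest pairs were Tcp1 with Cct4 (0.76) and Tcp1 with Cct2 (0.65), and the lowest was Cct7 with Cct8 (-0.46). Libraries with both genes at 10 or more normalised reads numbered 6, 7 and 9 of 12 in that order. Transcripts missing from a library therefore weigh in these r values. These values share library and depth and are given as a description.

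Levels of different subunits were compared per kb of the annotated transcript, which ranged from 1853 bases for Cct5 to 2484 bases for Cct4. In LOY libraries the mean level was highest for Cct5, at 280 ± 202 normalised reads per kb, followed by Cct4 (255 ± 147), Cct8 (224 ± 204) and Cct7 (209 ± 173). Cct3 (112 ± 95.8), Cct6a (84.6 ± 64.1), Tcp1 (68.9 ± 75.6) and Cct2 (62.8 ± 81.0) made up the lower part of the order. In control libraries Cct5 (389 ± 149) and Cct8 (352 ± 190) led, and Cct2 (87.8 ± 102), Cct6a (87.4 ± 130), Cct3 (57.5 ± 123), Cct7 (51.7 ± 49.9), Tcp1 (43.5 ± 75.2) and Cct4 (34.3 ± 78.7) followed (SD, n = 6 each). Neighbours in the LOY order differed by less than the larger of their SDs throughout. In the control order the same held except between Cct8 and Cct2, whose means were further apart than either SD.

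The transcripts of all 8 subunits, summed per kb, came to 1296 ± 443 normalised reads in LOY libraries and 1103 ± 537 in control libraries (SD, n = 6 each). The ranges overlapped, 759 to 1851 in LOY and 488 to 1982 in control. Cct4, whose values chose the family, is part of this sum, with a mean of 255 per kb in LOY and 34.3 in control. The sums are therefore not read as a difference between the groups. Cct4 made up 12.3%, 36.9%, 26.9%, 10.2%, 27.4% and 10.9% of that sum in LOY 3, 4, 5, 10, 14 and 15. In control 2, 6, 7, 8, 11 and 12 its share was 0.0993%, 0.167%, 0%, 0.497%, 15.9% and 0.229%. The mean share of Cct4 was 20.8 ± 11.2% in LOY and 2.81 ± 6.39% in control, while Cct5 held 20.4 ± 11.9% in LOY and 37.5 ± 9.70% in control (SD, n = 6 each). Cct8 held 17.6 ± 16.2% in LOY and 31.8 ± 15.3% in control, and Cct7 17.2 ± 13.3% in LOY and 6.15 ± 7.97% in control (SD, n = 6 each). Shares of 1 sum are tied to each other, so a high share of Cct4 lowers the rest.

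**Figure D3:**
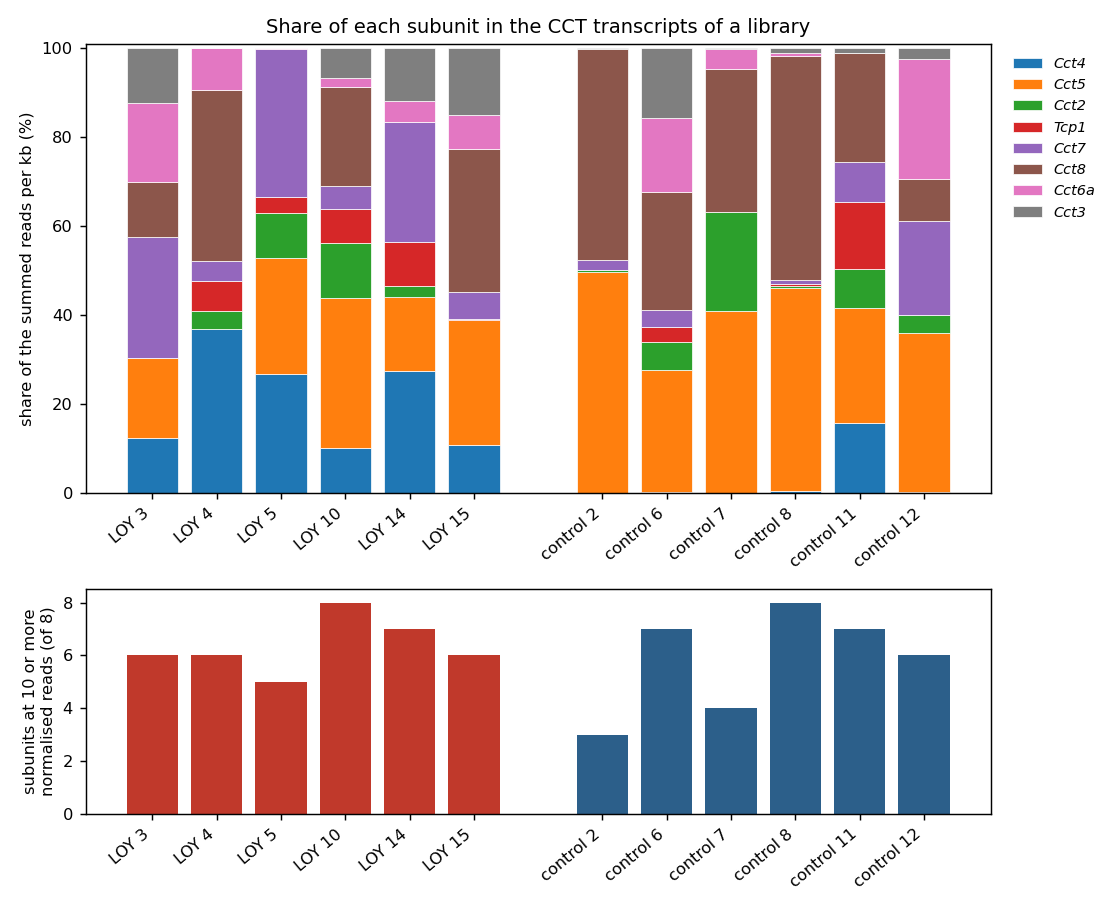
Upper panel, share of each subunit in the summed reads per kb of a library (%), LOY libraries left of control libraries. Lower panel, number of the 8 subunits at 10 or more normalised reads; the Cct4 share is 10.2% or more in every LOY library and, control 11 apart, under 0.5% in control libraries.

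The leading subunit differed from library to library in LOY and hardly in control. It was Cct7 in LOY 3 and LOY 5, Cct8 in LOY 4 and LOY 15, Cct5 in LOY 10 and Cct4 in LOY 14. In the control libraries Cct5 led in 5 of 6 and Cct8 in control 8. This order is a description and was not tested.

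Some subunits share exons with a gene on the opposite strand, and the library kit does not keep the strand, so their reads cannot be told apart there. Cct8 shares 192 exonic bases with Usp16, a deubiquitinase, which averaged 465 ± 295 normalised reads in LOY and 116 ± 118 in control (SD, n = 6 each). The log2 fold change of Usp16 was 2.78 (SE 1.31, limma adjusted p = 0.997), against -2.60 for Cct8. Cct7 shares 214 exonic bases with Pradc1, a secreted protein with a protease-associated domain, at 251 ± 212 in LOY and 212 ± 233 in control (SD, n = 6 each). Tcp1 shares 141 with Mrpl18, a mitochondrial ribosomal protein, at 251 ± 121 in LOY and 215 ± 187 in control (SD, n = 6 each). Tcp1 also shares 571 exonic bases with Acat3, and Cct6a 452 with Psph, neither of which is listed in the table. Cct4, Cct5, Cct2 and Cct3 share no exon with an annotated gene on the opposite strand. Cct5 starts 48 bases from Fam173b, which points the other way and averaged 1.48 ± 3.10 normalised reads in LOY and 50.8 ± 77.9 in control (SD, n = 6 each); it did not pass the filter and was not tested.

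Genes that work with the chaperonin gave no call. Of 76 listed genes, 64 were in the table and 52 were tested; 30 had a positive and 22 a negative log2 fold change, with a median of 0.31, against 0.0081 over all genes. The 52 are those past the filter used for limma, while DESeq2 and edgeR were read over the listed genes in their own fits. Neither limma nor DESeq2 nor edgeR called any listed gene at an adjusted p of 0.05. At an unadjusted p under 0.05 limma and edgeR passed 0 and DESeq2 passed 5, which were Actl6a, Hdac3, Rptor, Tbcb and Tbcd. DESeq2 passed 10.1% of all genes at that level. The number of listed genes with a p-value in DESeq2 was not counted, so the 5 are not given as a share.

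Prefoldin and its relatives, which deliver unfolded clients to the chaperonin, had 5 positive and 2 negative fold changes among 7 tested genes, with a median of 0.68. Pfdn5, the most abundant, averaged 796 ± 468 normalised reads in LOY and 1120 ± 532 in control (SD, n = 6 each), a log2 fold change of -0.53 (SE 0.43, limma adjusted p = 0.997). Vbp1, prefoldin subunit 3, averaged 403 ± 175 in LOY and 279 ± 135 in control, and Pfdn2 390.4 ± 233 in LOY and 200.3 ± 172 in control (SD, n = 6 each). Pdrg1, a prefoldin-like protein, had the highest fold of the list, 3.02 (SE 1.94, limma adjusted p = 0.997).

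All 3 tested phosducin-like genes had negative fold changes, with a median of -2.24, and none passed the test. Pdcl, which works with CCT on G protein beta subunits, averaged 45.5 ± 72.2 normalised reads in LOY and 197 ± 184 in control (SD, n = 6 each). The difference came to a log2 fold change of -3.06 (SE 1.73, limma adjusted p = 0.997). Pdcl3 averaged 105 ± 109 in LOY and 409.9 ± 327 in control, and Txndc9 311 ± 227 in LOY and 252 ± 181 in control (SD, n = 6 each). Txndc9 had a log2 fold change of -0.47 (SE 1.48, limma adjusted p = 0.999) although its mean was higher in LOY, so its direction turns with the scale.

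The clients themselves were split. Among actins and tubulins, 7 of 14 were positive and 7 negative, with a median of 0.12. Actg1, cytoplasmic gamma actin, averaged 27072 ± 2925 normalised reads in LOY and 28296 ± 6160 in control, and Actb, beta actin, 22140.2 ± 4872 in LOY and 24941 ± 11876 in control (SD, n = 6 each). Their log2 fold changes were -0.036 (SE 0.18) and -0.034 (SE 0.32), with limma adjusted p-values of 0.9995 and 0.9997. Tuba1b averaged 319 ± 189 in LOY and 548 ± 132 in control, and Tubb6 398 ± 236 in LOY and 260.5 ± 245 in control (SD, n = 6 each). Of 11 tested WD40 and other clients, 6 were positive and 5 negative, with a median of 0.024. The transcription factor Stat3 averaged 3926 ± 1683 in LOY and 4034 ± 1494 in control (SD, n = 6 each). The phosphatase subunit Ppp4c averaged 1180.4 ± 746 in LOY and 1517 ± 960 in control (SD, n = 6 each). The histone deacetylase Hdac3 averaged 190.1 ± 256 in LOY and 11.1 ± 14.6 in control, and the WD40 protein Tbl1xr1 310 ± 270 in LOY and 661 ± 408 in control (SD, n = 6 each).

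The cofactors that take tubulin onward from CCT had 3 positive and 2 negative fold changes among 5 tested, with a median of 0.69. Tbca averaged 186 ± 71.3 normalised reads in LOY and 103 ± 111 in control, Tbcb 353 ± 339 in LOY and 54.5 ± 65.2 in control, and Tbce 330.4 ± 326 in LOY and 370.1 ± 180 in control (SD, n = 6 each). Among the heat shock factor and the cytosolic HSP70 and HSP90 genes, 7 of 10 were positive, with a median of 0.67. Hspa8, the constitutive HSP70, averaged 6568 ± 1907 in LOY and 5520.4 ± 1665 in control (SD, n = 6 each). The log2 fold changes of its partners were -0.41 (SE 0.27) for Dnaja1, 0.69 (SE 0.39) for Dnajb1 and 0.79 (SE 0.45) for Hsp90aa1. The mitochondrial chaperonin genes, which belong to another chaperonin class, had log2 fold changes of 1.11 (SE 1.58) for Hspd1 and 2.01 (SE 1.22) for Hspe1. No gene of these lists passed the test in limma, where adjusted p-values were 0.997 or higher.

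**Figure D4:**
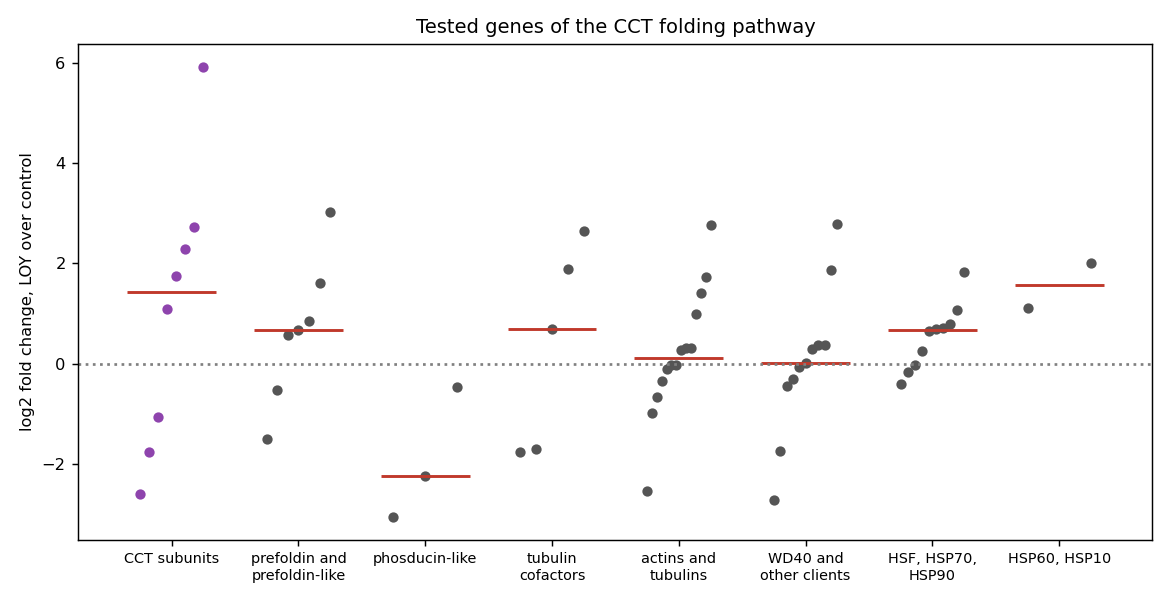
Log2 fold change, LOY over control, of every tested gene of the CCT subunits (purple) and 7 pathway lists (grey), 1 point per gene, with the list median as a red line. The medians run from -2.24 for phosducin-like genes to 1.56 for the HSP60 and HSP10 genes, and no grey point passed the adjusted threshold. The median of the CCT subunits includes Cct4, whose value chose the family.

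Levels of other cell types' markers also differed between libraries. The 10 cardiomyocyte markers summed to 4429 to 56727 normalised reads in LOY and to 3715 to 7829 in control; all 10 were tested and all had positive fold changes, and Ryr2 was at 0 in at least 6 libraries. LOY 10 held the highest sum. DESeq2 called 3 of the 10 at an adjusted p of 0.05, and limma and edgeR called 0. Over all genes, DESeq2 called 3.12%, limma 0.0288% and edgeR 0%, and 50.4% of those tested in limma had positive fold changes. At an unadjusted p under 0.05, limma passed 4 of the 10, DESeq2 3 and edgeR 3. The shares of all genes at that level were 4.37%, 10.1% and 1.84%. The endothelial sums were 2882 to 6510 in LOY and 1181 to 4086 in control, with Tie1 and Emcn at 0 in at least 6 libraries, and 8 of 9 tested markers were positive. The fibroblast sums were 5835 to 16580 in LOY and 2972 to 10540 in control, with Pdgfra, Lum, Dpt and Tcf21 at 0 in at least 6 libraries, and 6 of 6 tested markers were positive. The macrophage sums were 4074 to 13758 in LOY and 7278 to 9932 in control, with Lyve1 at 0 in at least 6 libraries; 2 of 8 tested markers were positive, and DESeq2 called 1. The red cell sums were 0.989 to 6766 in LOY and 2.84 to 9611 in control, with Alas2 at 0 in at least 6 libraries; 0 of 4 tested markers were positive, and DESeq2 called 1. The B cell sums were 2996 to 8616 in LOY and 2803 to 12257 in control, and 1 of 6 tested markers was positive. Of 6 T cell markers the table lists Cd3d, which was at 0 in at least 6 libraries and was not tested. With the cardiomyocyte mean as a covariate the log2 fold change of Cct4 was 5.25, against 5.92 without it. Every other subunit was also lower with the covariate than without it. With it, Tcp1 was at 0.78, Cct2 at -1.99, Cct3 at -2.53 and Cct5 at -3.12. Cct6a was then at 0.42, Cct7 at 1.77 and Cct8 at -4.54. The part of the other cell types' transcripts was not tested. CCT is made by all cell types, and in sorted bulk samples fewer cells of a type and less RNA per cell cannot be told apart.

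The genes most like Cct4 over the 12 libraries, by Pearson's r of log2(normalised reads + 1) among 6942 other genes, were Tusc2 (r = 0.93), Cyfip1 (r = 0.87) and Clcn7 (r = 0.86). Tusc2, a mitochondrial protein, ranged from 19.8 to 118 normalised reads in LOY and from 0 to 38.6 in control. Cyfip1, a part of the WAVE complex that regulates actin, ranged from 279 to 581 in LOY and from 107 to 419 in control. Clcn7, a lysosomal chloride channel protein, ranged from 5.15 to 446 in LOY and from 0 to 318 in control. The genes most like the mean of the 8 subunits were Rab29 (r = 0.87), Cdk5rap3 (r = 0.86) and Stx16 (r = 0.85). They are the highest of 6942 values, share library and depth with the subunits, and carry no test. Group means were not subtracted here, unlike for the subunit pairs. The difference of Cct4 between the groups, which chose the family, is therefore part of these r values.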

How the data were processed

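The authors deposited 1 table of 11911 genes. Its signal values are, per the file headers and the values, reads of a gene scaled by a factor of the library. All values (100%) were whole multiples of a library's smallest step, to a tolerance of 0.01 reads, and so the reads were recovered. The deposited log2 fold changes and p-values (9722 genes with, 2189 without) are the authors' own. The tools for these and for the scaling are not stated in the material used here. Up to a common factor, DESeq2 size factors from the recovered reads matched the deposited factors, with a largest relative difference of 4.19e-06. The submitters' processing notes name STAR 2.5.2b, featureCounts (Subread 1.5.2), Trimmomatic 0.36 and bcl2fastq 2.17, and the builds GRCm38 and mm10. Symbols turned into dates (17) or blank (8) were replaced from GENCODE M21, which held 11892 of the identifiers. The cDNA was made with SMART-Seq v4 and Nextera XT, which keep neither strand nor molecular identifiers, so PCR copies count as reads.

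The main test was limma 3.58.1 (R 4.3.3; trend, robust) on log2(normalised reads + 1), LOY over control, all 12 libraries, two-sided, with Benjamini-Hochberg adjustment over the 6951 genes past the filter (10 normalised reads in 6 libraries) and a threshold of 0.05. Alternatives were DESeq2 1.42.0 and edgeR 4.0.16 (quasi-likelihood) on the recovered reads, pseudocounts of 0.5 and 5, quantile normalization, no filter, a mean of at least 50, a cardiomyocyte covariate and leaving out each library. The fits were also run on simulated counts as a self-test, and no result given here rests on that run. No pair of replicates agreed within sampling noise (lowest chi-square per degree of freedom 196). The longest annotated transcript gave lengths. Near copies were found with BLAST against the GENCODE M21 transcripts of pseudogenes, of the subunits and of named relatives such as Cct6b. Other transcripts were not searched. The members and lists were chosen with earlier results of these data known. Named were all 8 subunits, of each pathway list the 2 genes of highest mean and the 2 of smallest p, the 3 genes most like Cct4 and the 3 most like the mean subunit, and Ddx3y; the overlapping neighbours, Cct6b and the 5 genes passing in DESeq2 were added after their values were seen.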

Additional observations from a re-analysis of the deposited data

Results flagged for a closer look

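Of 70 groups of 6 values checked, 10 had a library that stood apart from the other 5 by Dixon's criterion. Chance meets it in about 1 group of 20 where values follow a normal distribution. The values here were unlogged reads, shares and counts, with many reads near 0, so that rate need not hold. Some groups also rest on the same values, such as the reads and the share of Cct4. The 10 of 70 are therefore not compared with that rate. Among the subunits, Cct4 in control 11 was at 484 normalised reads, with the next control library at 13.9, and its share in the summed reads per kb of that library was 15.9%, with the next at 0.497%. Control 11 also stood apart for Tcp1 (457, next 167). Control 6 stood apart for Cct3 (609, next 22.8) and LOY 10 for Cct2 (425, next 151). Among the pathway genes, the highest library stood apart for Pfdn5 in LOY 15 (1696, next 845), Pdcl in LOY 3 (184, next 63.8), Hspa8 in LOY 14 (10285, next 6666) and Dnaja1 in control 6 (5855, next 3773), and the lowest for Actg1 in control 8 (16743, next 28279).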

How the results depend on the processing

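Cct4 was left out of the count of calls here too. None of the 7 remaining subunits was called under any of the 20 alternatives run, where their lowest adjusted p was 0.357 (Cct7 in DESeq2). Over all genes the 2 calls became 303 in DESeq2 and 0 in edgeR, without a filter, with a mean of at least 50 and with the cardiomyocyte covariate, and 0 to 4 with 1 library left out (4 without control 11); the cause was not tested. Of 160 alternative fold changes of the 8 subunits, 3 reversed: Cct3 with the covariate (-2.53) and Cct6a in DESeq2 (-0.047) and edgeR (-0.068). Cct4 kept its direction at 2.87 to 6.20, the lowest values being those of edgeR (2.87) and DESeq2 (2.89), and 5.28 to 7.07 with 1 library left out; its ratio of means went to 120 without control 11. The mean Cct4 share was 17.6% to 22.9% in LOY and 0.198% to 3.37% in control with 1 library left out, the 0.198% being without control 11. Values below the threshold numbered 6 in LOY and 6 in control at a threshold of 1, and 10 in LOY and 23 in control at 50. Cct4, whose values chose the family, is included in these counts. Shares per coding length were not run, because Cct6a has no coding length in GENCODE M21; exon unions were used instead, chosen after seeing the data, as was the ratio without control 11. No paired analysis was possible because the groups share no replicate number. Amplification from 800 cells limits values of a few reads.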
